A study of Mus musculus with 14 samples.

Results

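The glucocorticoid receptor gene Nr3c1 and 6 genes that steroid hormone can induce through it, Tsc22d3, Fkbp5, Sgk1, Ddit4, Errfi1 and Tsc22d1, were followed in microglia of aged mice with and without CD22 blockade. These 7 of 24394 named genes were chosen by symbol, and all 7 had a mean of at least 10 normalized counts, the minimum for testing, which 11646 genes reached. Microglia are the resident macrophages of the brain. The libraries came from C57BL/6 mice 18 months old, all of which had carried an osmotic pump into the cerebrospinal fluid for 1 month. The pump delivered an antibody that blocks CD22, an inhibitory sialic acid receptor, to one group and control IgG to the other, with 7 libraries in each group. Cells came from the hemisphere opposite the cannula, as about 20000 sorted living CD11b+ CD45lo cells per sample. The labels name no steroid treatment, and hormone levels were not analysed here. They also do not say whether each library is a separate animal, so p-values measure the spread between these libraries.

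The glucocorticoid receptor is a transcription factor that waits in the cytosol in a complex with the chaperone Hsp90 and an immunophilin. When corticosterone, the main glucocorticoid of mice, binds to it, the receptor enters the nucleus, binds DNA elements near its targets and raises their transcription, while it restrains inflammatory genes. In microglia it is known for damping inflammatory responses. Several of its targets feed back on signalling, since Fkbp5 lowers the receptor's affinity for hormone, Tsc22d3 restrains NF-kB and AP-1, Ddit4 restrains the growth kinase complex mTORC1 and Errfi1 restrains the EGF receptor.

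Normalized counts, which are read counts divided by 1 size factor per library, summed to between 27357939 and 29197481 per library, from 20221836 to 38101421 reads in the 13 libraries where whole reads could be recovered. The 10 listed microglia markers were all detected, and their sum ranged from 1822320 to 2172920 normalized counts under IgG and from 1920630 to 2079269 under anti-CD22. Neutrophil markers (9 genes) set libraries apart in both groups, with sums from 3.34 to 56246 under IgG, highest in replicate 1, and from 1.86 to 10810.3 under anti-CD22, highest in replicate 4. Summed border-associated macrophage markers (8 genes) ranged from 131 to 1779 under IgG and from 297 to 2548 under anti-CD22, and monocyte markers (6 genes) from 137 to 9230 and from 88.2 to 2338. The endothelial sum (10 genes, Cldn5 and Slco1a4 at 0) ranged from 1009 to 1351 and from 1021 to 1590, mostly Pecam1. Astrocyte (9 genes), oligodendrocyte (9) and neuron (9) sums ranged over all libraries from 5927 to 8617, from 4949 to 6710 and from 21.3 to 116, most of the first from Slc1a3 (mean 7473 normalized counts) and of the second from Cnp (3761), Mbp (974) and Mag (878). Other genes named here from these lists were low, with means of 2.00 for Aqp4, 30.8 for Gfap, 4.72 for Mog, 0.789 for Syt1 and 36.6 for Snap25. The B cell sum (5 of 6 listed genes in the table) ranged from 1208.0 to 1639.6 under IgG and from 1133 to 1463 under anti-CD22, nearly all from Cd79b (mean 1351), with Cd79a at 11.2 and Ms4a1 and Pax5 at 0. For T cells, Cd3e, Cd3g and Cd2 were at 0, and the sum of the 6 listed genes in the table reached at most 35.9. Of 6 erythrocyte markers 5 were at 0. In bulk samples fewer cells of a type and less RNA per cell cannot be told apart. Long transcripts were relatively more abundant in some libraries than in others, and Spearman's rho between transcript length and a library's deviation from the mean ran from -0.259 to -0.00295 under IgG and from -0.269 to 0.327 under anti-CD22. It was highest in anti-CD22 replicates 1, 2 and 3 (0.31, 0.286 and 0.327). The matching rho with GC content was -0.308, -0.403 and -0.36 in these libraries and from -0.0223 to 0.278 in the others. Some fits below left these libraries out together. The part of these markers in the results was not tested.

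Whether CD22 blockade went with a different level of the receptor or its targets was tested first. None of the 7 genes passed the threshold, an adjusted p of 0.05 by limma over all 11646 genes (0 of 7 genes), where 0.00859% of all genes passed. At an unadjusted p under 0.05 there was 1 of 7, Sgk1, lower under anti-CD22, and 0 of 7 higher. Of all genes 12.8% had such a p, 5.95% lower and 6.8% higher. A share of 1 in 7 genes is near that background. The edgeR quasi-likelihood test gave 0 of 7 past adjustment, where 0% of all genes passed, and 0 of 7 at an unadjusted p under 0.05, where 8.82% of all genes stood. DESeq2 gave an adjusted p to 6679 genes and called 0.524% of those, and 0 of the 7, but it gave no adjusted p for Ddit4 and Tsc22d1. By DESeq2 1 of 7 (Sgk1) had an unadjusted p under 0.05, where 10% of 11644 genes had one. The groups overlapped for all 7 genes, and 0.258% of all genes tested had groups that did not overlap. The median log2 ratio (the log2 fold change of anti-CD22 over IgG) was 0.04 for the 7 genes, 4 higher and 3 lower. For all genes tested it was 0.00, with 5851 higher and 5795 lower. A trend with transcript length and GC content was then removed in each library. After this the median of the 7 genes was -0.05 with 3 higher and 4 lower, against 0.01 for all genes.

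**Figure D1:**
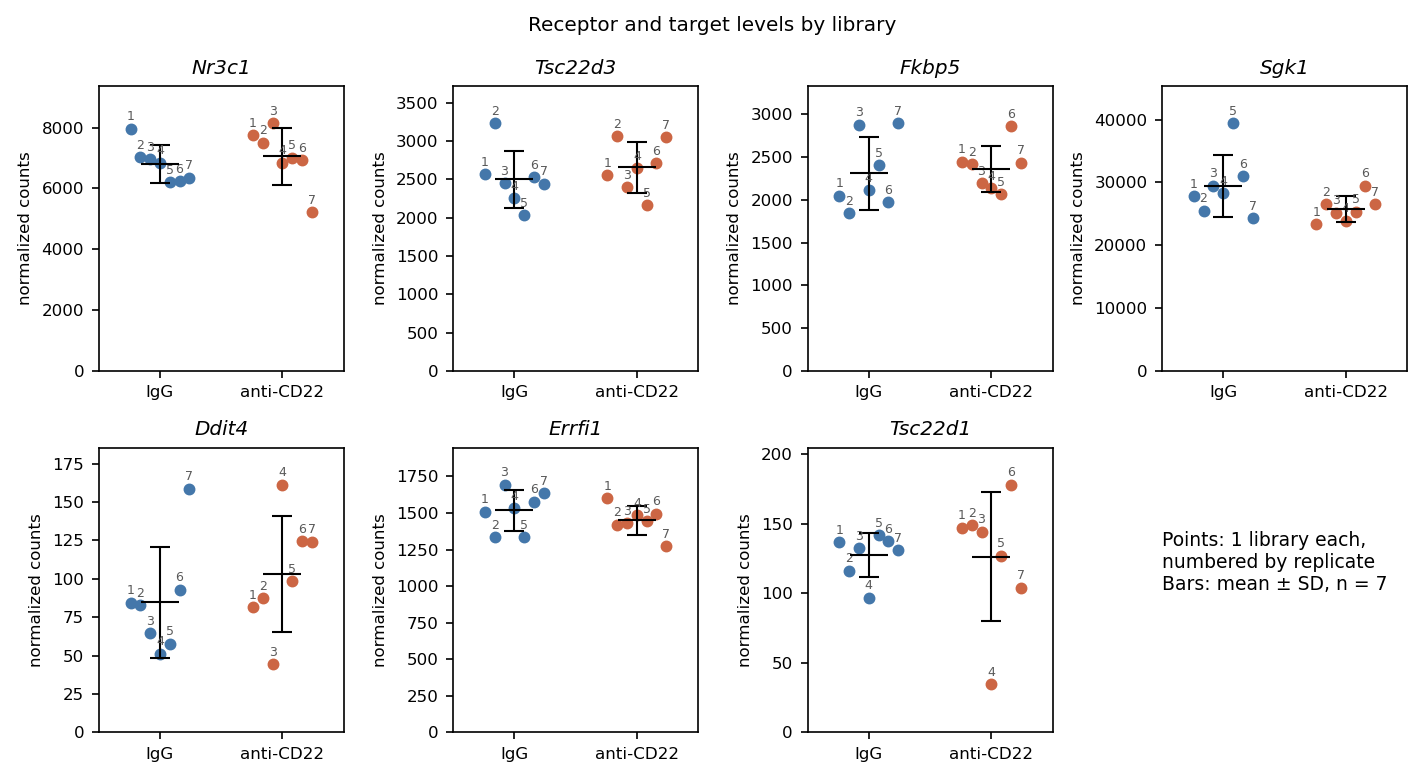
Normalized counts (vertical axes, from 0) of the receptor gene and its 6 targets by group (horizontal axes). Each point is 1 library numbered by its replicate, and bars give the mean ± SD (n = 7 per group). The groups overlap in every panel, and the low anti-CD22 replicate 4 stands out for Tsc22d1 at 34.9 and the high IgG replicate 5 for Sgk1 at 39447.

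The panels of levels by library show spreads of very different size. Within groups, the SD on the log2 scale was 0.118 for Errfi1, smaller than in all but 9.23% of the genes tested, and 0.173 for Nr3c1, 0.179 for Sgk1, 0.193 for Tsc22d3 and 0.216 for Fkbp5. Ddit4 and Tsc22d1, the genes with the fewest counts, had SDs of 0.564 and 0.569, larger than in 81.8% and 82.0% of all genes. The 95% intervals therefore bound the group difference closely for the first 5 genes and loosely for the other two. For the receptor the fold interval ran from 0.915 to 1.16 and for Errfi1 from 0.858 to 1.07. For Ddit4 it ran from 0.793 to 1.86 and for Tsc22d1 from 0.603 to 1.37. A p that misses the threshold does not show that the groups are alike.

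**Figure D2:**
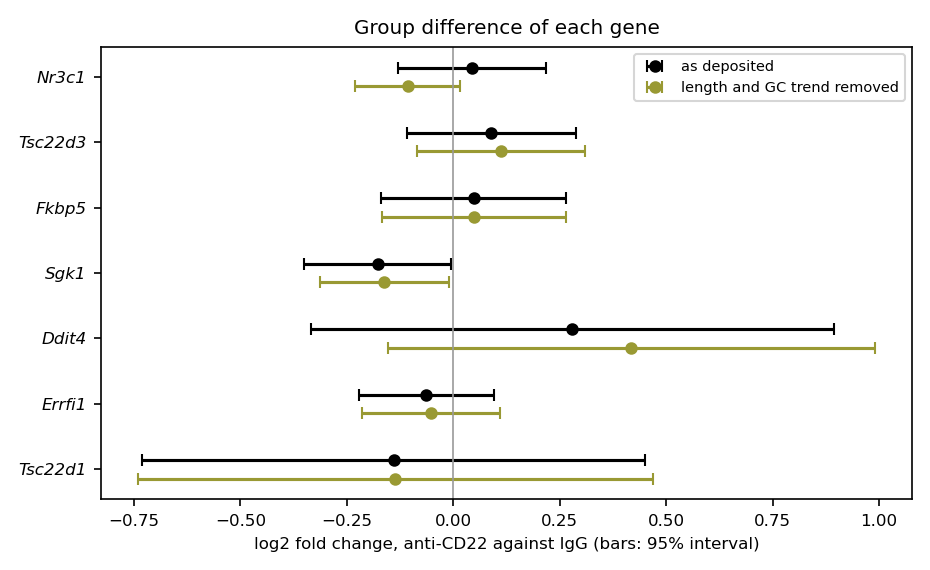
Log2 fold change of anti-CD22 over IgG (horizontal axis) with its 95% interval by limma (bars), for each gene (vertical axis), on the deposited values and after removal of the trend with transcript length and GC content in each library. Nr3c1 moves from 0.04 to -0.11 when the trend is removed, and Sgk1 has an interval below 0 on both scales.

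Levels of different genes were compared per kilobase of the longest annotated transcript. Sgk1 had the highest level by far, at 8913 normalized counts per kilobase, followed by Nr3c1 at 1077, Tsc22d3 at 897, Fkbp5 at 606, Errfi1 at 488, Ddit4 at 53.5 and Tsc22d1 at 25.4. The lowest library of Sgk1 (7537 per kilobase) lay above the highest of Nr3c1 (1265), and the lowest of Errfi1 (419) above the highest of Ddit4 (91.9). All other neighbours in this order had overlapping ranges over the 14 libraries. Within libraries, Nr3c1 lay above Tsc22d3 in 12 of 14 and Tsc22d3 above Fkbp5 in 14 of 14. The order of Fkbp5 over Errfi1, seen in 13 libraries, depended on the length used, since per kilobase of all annotated exons Fkbp5 stood at 247 and Errfi1 at 414, with Fkbp5 higher in 0 libraries.

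The receptor gene itself differed little between the groups. Nr3c1 (ENSMUSG00000024431.15, chromosome 18: 39410545 to 39519421, GRCm38, minus strand) had from 6215 to 7962 normalized counts under IgG, with a median of 6848. With anti-CD22 the range was 5215 to 8145 and the median 7009. The 3 highest anti-CD22 libraries were replicates 1, 2 and 3, while the lowest of all 14 was anti-CD22 replicate 7, and the ranges overlapped. The mean was 6805 ± 616 normalized counts (SD, n = 7) under IgG and 7056 ± 941 (SD, n = 7) under anti-CD22, a log2 ratio of 0.04 (SE 0.083, limma adjusted p = 0.849), with 5 of 7 anti-CD22 libraries over the median of IgG. Without anti-CD22 replicate 7 the log2 ratio was 0.12 (adjusted p = 0.379), and without anti-CD22 replicates 1, 2 and 3 it was -0.07.

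Nr3c1 has a long transcript, 6436 bases in the annotation, and its level moved with the length trend of the library. Over the 14 libraries its log2 level had Pearson's r = 0.707 with each library's length rho (permutation p = 0.00349, adjusted p = 0.0489 over 14 relations) and Spearman's rho = 0.732 (permutation p = 0.00382, adjusted p = 0.0517). Without the 2 libraries farthest from the median length trend, anti-CD22 replicates 1 and 3, r was 0.57. Within groups r was 0.264 over the 7 IgG libraries and 0.941 over the 7 anti-CD22 libraries. The next longest of the 7 genes, Tsc22d1 (4999 bases) and Fkbp5 (3858 bases), had r of 0.0202 and 0.0388 with the same length rho. The part of transcript length in the Nr3c1 relation was not tested. With the trend with length and GC content removed in each library, Nr3c1 had a log2 ratio of -0.11 (SE 0.059, 95% interval -0.23 to 0.02, limma adjusted p = 0.589), so the direction depended on this step. Of the 9428 genes with a mean of at least 100 normalized counts, the 4 whose log2 levels followed Nr3c1 most closely over the 14 libraries were Trpm7, an ion channel with a kinase domain (r = 0.933), Sft2d2 (0.92), Tbc1d8b (0.92) and the nuclear pore gene Nup98 (0.908). These r were picked as the highest and are a description, and with the trend removed they were 0.63, 0.45, 0.545 and 0.488.

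**Figure D3:**
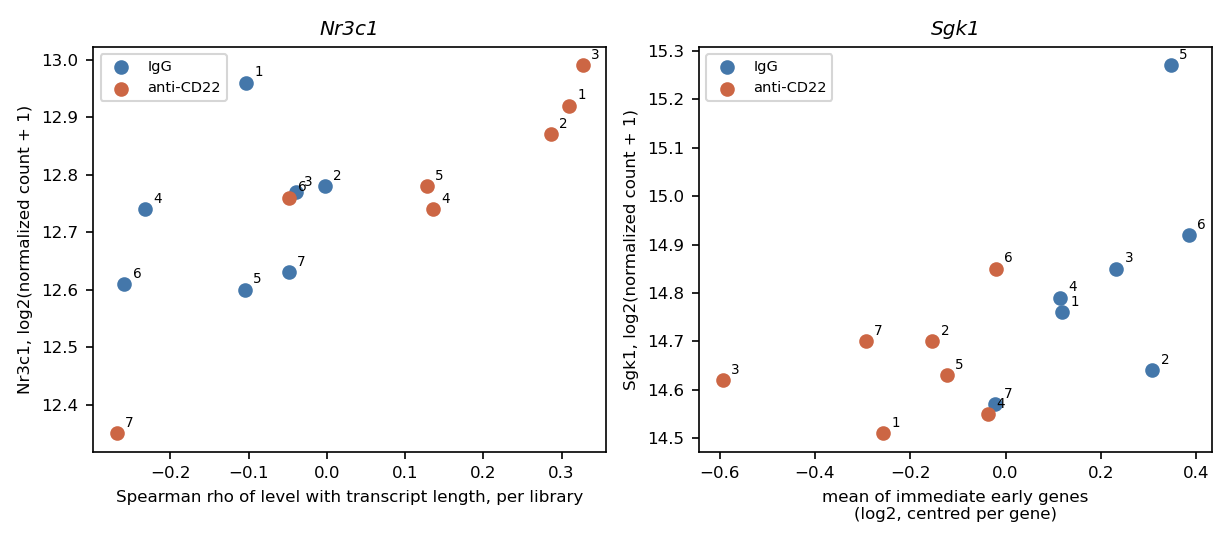
Log2 levels of Nr3c1 against Spearman's rho between transcript length and deviation from the mean level in each library (left). On the right, log2 levels of Sgk1 against the mean of 18 immediate early and heat shock genes, centred per gene on the log2 scale. Points are the 14 libraries, numbered by replicate and coloured by group. Anti-CD22 replicates 1, 2 and 3 are high on both axes for Nr3c1, and IgG replicate 5 is the highest for Sgk1.

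Around the receptor stand the chaperones that hold it ready for hormone. All 18 listed chaperones and immunophilins were tested and 0 passed by limma (1 higher and 2 lower at an unadjusted p under 0.05), with 6 higher, 12 lower and a median log2 ratio of -0.08. Hsp90ab1, which encodes the constitutive Hsp90, averaged 12089 normalized counts under IgG and 11876.5 under anti-CD22 (log2 ratio -0.02). Fkbp4, the immunophilin that competes with Fkbp5 for the complex, averaged 4531 and 4294 (log2 ratio -0.08, adjusted p = 0.652). The smallest p were those of the Hsp70 cofactor Bag1 (3391 ± 201 and 2908 ± 314, SD, n = 7 each, log2 ratio -0.23, limma adjusted p = 0.238), the Hsp90 activator Ahsa1 (-0.19), the Hsp40 gene Dnajb1 (0.23) and the ubiquitin ligase Stub1 (-0.23). After removal of the length and GC trend Bag1 stood at -0.10 and Stub1 at -0.07.

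Coactivators and corepressors pass the receptor's signal to chromatin. Of 15 listed, 14 were tested, 11 were higher and 3 lower, with a median log2 ratio of 0.08. By limma 0 passed (4 higher and 1 lower at an unadjusted p under 0.05). Over all genes tested 5851 of 11646 were higher, and 6.8% were higher at such a p. The acetyltransferase Ep300 averaged 877 ± 126 normalized counts (SD, n = 7) under IgG and 1143 ± 183 (SD, n = 7) under anti-CD22, a log2 ratio of 0.38 (limma adjusted p = 0.219), with 7 of 7 anti-CD22 libraries over the median of IgG. Nrip1, a ligand-dependent corepressor, had a log2 ratio of 0.24, the coactivator Ncoa3 one of 0.32 and the acetyltransferase Crebbp one of 0.29. These values were smaller after removal of the length and GC trend, at 0.25 for Ep300, 0.08 for Nrip1, 0.21 for Ncoa3 and 0.15 for Crebbp.

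Genes that decide which steroid reaches the receptor were few in these cells. Of 8 listed, 4 were tested, 1 higher and 3 lower (median log2 ratio -0.16), and 0 passed by limma (0 at an unadjusted p under 0.05). Hsd11b1, whose product regenerates active glucocorticoid, was listed at 0 in at least 1 library of each group and reached 139.7 normalized counts in IgG replicate 1, the library with the highest neutrophil marker sum, and 40.1 under anti-CD22. Its log2 ratio was -0.22 (SE 1.35) and 0.60 without IgG replicate 1. H6pd, which supplies the cofactor for that enzyme, averaged 3452 ± 307 and 3227 ± 518 normalized counts (SD, n = 7 each). Srd5a1, a steroid reductase gene, averaged 21.2 ± 15.5 and 8.88 ± 6.49 (SD, n = 7 each, log2 ratio -1.05, limma adjusted p = 0.617), and was listed at 0 in at least 1 library of each group. Leaving out IgG replicate 2 gave a log2 ratio of -1.69, leaving out anti-CD22 replicate 3 gave -0.57, and leaving out anti-CD22 replicates 1, 2 and 3 gave -0.19. Hsd11b2, which inactivates glucocorticoid, had 0 counts in all libraries. The mineralocorticoid receptor gene Nr3c2, whose product also binds corticosterone, averaged 265 ± 64.8 under IgG and 339 ± 79.9 under anti-CD22 (SD, n = 7 each, log2 ratio 0.36, limma adjusted p = 0.424). Per kilobase Nr3c2 stood at 51.0 normalized counts, below the 1077 of Nr3c1.

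Tsc22d3, which encodes the glucocorticoid-induced leucine zipper GILZ, was slightly higher on average under anti-CD22. It lies on chromosome X: 140539528 to 140600659 (ENSMUSG00000031431.13, minus strand). With IgG the libraries ran from 2033 to 3234 normalized counts with a median of 2451. With anti-CD22 they ran from 2160.3 to 3067 with a median of 2649.9. The highest libraries were IgG replicate 2 and anti-CD22 replicates 2 and 7, and the groups overlapped over most of their range. The means were 2502 ± 372 and 2656 ± 329 normalized counts (SD, n = 7 each), a log2 ratio of 0.09 (SE 0.095, 95% interval -0.11 to 0.29, limma adjusted p = 0.716). The value was 0.04 without IgG replicate 5, the lowest library, and 0.15 without IgG replicate 2. Neutrophils also express Tsc22d3, and IgG replicate 1, with the highest neutrophil marker sum (56246), had 2568 normalized counts. Without that library the log2 ratio was 0.10. The highest libraries of Tsc22d3, IgG replicate 2 and anti-CD22 replicates 2 and 7, had neutrophil marker sums of 6733, 10284 and 2588. The part of neutrophils in the Tsc22d3 levels was not tested. The genes that followed Tsc22d3 most closely were Tlr6, a Toll-like receptor (r = 0.836 over 14 libraries), the splicing factor Luc7l (0.799), the endotoxin co-receptor component Ly96 (0.783) and Edrf1 (0.772), and with the trend removed r was 0.905, 0.765, 0.761 and 0.874.

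Tsc22d3 belongs to a family of 4 genes that share a leucine zipper domain, and the other members of the family were tested beside it. Tsc22d4 was the most abundant per length with Tsc22d3, at 947 and 897 normalized counts per kilobase, while Tsc22d2 stood at 176 and Tsc22d1 at 25.4. Of the 4 genes 0 passed by limma, and 1 higher and 1 lower had an unadjusted p under 0.05. Tsc22d4 averaged 4083 ± 181 normalized counts under IgG and 3460.1 ± 504 under anti-CD22 (SD, n = 7 each, log2 ratio -0.25, limma adjusted p = 0.239). In all, 7 of 7 anti-CD22 libraries of Tsc22d4 were under the median of IgG. Tsc22d2 averaged 1559.6 ± 152 and 1892 ± 309 (SD, n = 7 each, log2 ratio 0.27, limma adjusted p = 0.294). After removal of the length and GC trend Tsc22d4 stood at -0.21 and Tsc22d2 at 0.10.

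Fkbp5, the immunophilin that lowers the receptor's hormone affinity and is itself hormone-induced, had nearly the same mean in both groups. It lies on chromosome 17: 28399094 to 28517527 (ENSMUSG00000024222.17, minus strand). The IgG libraries ran from 1844 to 2896 normalized counts with a median of 2110.0, and the anti-CD22 libraries from 2064 to 2858 with a median of 2417. IgG replicates 3 and 7 and anti-CD22 replicate 6 stood above the others, so both groups held high libraries. The means were 2309 ± 431 and 2365 ± 267 (SD, n = 7 each), a log2 ratio of 0.05 (SE 0.104, 95% interval -0.17 to 0.27, limma adjusted p = 0.877). Leaving out IgG replicate 7 gave 0.11, leaving out IgG replicate 6 gave 0.01 and leaving out IgG replicate 2 gave -0.0027. With the trend removed it was 0.05. Among the genes that followed Fkbp5 most closely were Vdac1, a mitochondrial channel (r = 0.839), the kinase anchor Akap7 (0.807) and the chemokine receptor-like gene Ccr1l1 (0.778).

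Sgk1, a kinase that hormone induces and that acts on ion channels and FOXO factors, was the target with the smallest p and the highest level. It lies on chromosome 10: 21882184 to 21999903 (ENSMUSG00000019970.15, plus strand). Among 32851 promoter windows in RefSeq (build GRCm38.p6, 250 bases before to 50 after each annotated start), the palindromic glucocorticoid response element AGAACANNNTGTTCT was found in 3, or 0.00913%, and 1 of these belongs to Sgk1. Windows were found for 6 of the 7 genes, 18 in all, and the element was in 1 of the 18. The Sgk1 window is shown for that reason, with the element in capitals, on the plus strand of chr10:21993640-21993939. The element itself spans 21993701 to 21993715, starting 189 bases before the start site of that window and ending 951 bases before the start site of the last annotated window (chr10:21994416-21994715), which holds 0 copies.

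Sgk1 window with the element: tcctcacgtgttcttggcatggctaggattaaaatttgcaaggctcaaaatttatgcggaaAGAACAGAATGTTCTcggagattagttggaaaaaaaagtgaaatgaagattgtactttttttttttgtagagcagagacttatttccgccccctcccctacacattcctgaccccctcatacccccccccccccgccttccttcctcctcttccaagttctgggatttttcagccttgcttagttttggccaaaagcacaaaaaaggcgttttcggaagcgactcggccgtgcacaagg

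Sgk1 window of the last annotated start: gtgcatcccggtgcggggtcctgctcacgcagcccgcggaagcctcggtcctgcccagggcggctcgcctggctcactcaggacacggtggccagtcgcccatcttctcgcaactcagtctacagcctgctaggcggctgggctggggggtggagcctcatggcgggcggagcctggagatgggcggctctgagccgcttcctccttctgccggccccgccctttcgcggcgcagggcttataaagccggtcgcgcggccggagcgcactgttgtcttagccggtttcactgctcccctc

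The single arm AGAACA, read on both strands and counted also inside the full element, is common and occurs in 19% of all windows of this length. It was found in 5 of the 18 windows, in 3 genes, Sgk1, Tsc22d3 and Tsc22d1. The single Tsc22d3 copy lies in the window chrX:140600473-140600772, read from the minus strand and shown for comparison with the full element, with the single arm in capitals as it appears on the opposite strand. A match is a description of the letters and not of binding, and a window without one says nothing about the receptor.

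Tsc22d3 window with the single arm: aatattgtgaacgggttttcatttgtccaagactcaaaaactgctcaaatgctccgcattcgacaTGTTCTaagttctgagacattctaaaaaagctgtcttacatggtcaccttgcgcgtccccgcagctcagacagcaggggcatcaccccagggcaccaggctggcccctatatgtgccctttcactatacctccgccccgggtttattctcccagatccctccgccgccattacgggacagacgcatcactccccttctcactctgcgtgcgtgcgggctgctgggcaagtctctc

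Sgk1 had from 24268 to 39447 normalized counts under IgG, with a median of 28328. With anti-CD22 it had from 23335.5 to 29482 with a median of 25338. IgG replicate 5 stood alone at the top, above IgG replicate 6 at 30980.4, and anti-CD22 replicates 1 and 4 were the lowest libraries, with overlap between the groups over the rest. The means were 29413 ± 4973 and 25779 ± 2034 (SD, n = 7 each), a log2 ratio of -0.18 (SE 0.0829, 95% interval -0.35 to -0.0045), with 6 of 7 anti-CD22 libraries under the median of IgG. The limma p was 0.0448 before and 0.383 after adjustment over all genes, and an exact permutation test with 3432 arrangements gave p = 0.0682 (two-sided). The value rested in part on 1 library, since without IgG replicate 5 the log2 ratio was -0.10 (95% interval -0.24 to 0.03, limma adjusted p = 0.539). After removal of the length and GC trend it was -0.16 (limma adjusted p = 0.490).

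Sgk1 levels were also set beside the immediate early genes, a fast transcriptional response to stimulation and to handling. The list used also held the heat shock genes Hspa1a and Hspa1b. Its centred mean ran from -0.022 to 0.384 under IgG and from -0.594 to -0.021 under anti-CD22. Over the 14 libraries the log2 level of Sgk1 had r = 0.606 with the mean of the 18 listed genes tested (permutation p = 0.0215, adjusted p = 0.150 over 14 relations). Spearman's rho was 0.692 (permutation p = 0.00739, adjusted p = 0.0517). Without IgG replicate 6 and anti-CD22 replicate 3, the farthest from the median, r was 0.614, and within groups it was 0.634 for IgG and 0.256 for anti-CD22. With the length trend of the library, Sgk1 had r = -0.518 (permutation p = 0.0535, adjusted p = 0.250) and rho = -0.67 (permutation p = 0.0113, adjusted p = 0.0527), and r was -0.395 without anti-CD22 replicates 1 and 3, -0.313 in IgG and -0.539 in anti-CD22. Neither relation passed adjustment, and their part in the Sgk1 difference was not tested. The genes that followed Sgk1 most closely were Stard3, a cholesterol carrier of late endosomes (r = 0.94), the lipid phosphatase gene Ppap2a (0.895), the purine enzyme gene Pnp (0.892) and the tetraspanin gene Cd9 (0.887). In IgG alone these r were 0.979, 0.97, 0.929 and 0.918, and in anti-CD22 alone 0.773, 0.592, 0.506 and 0.6. The genes were picked for the highest r over the 14 libraries, so these values are a description. The IgG values include replicate 5, the highest library for Sgk1. Its part in them and the difference between the groups were not tested.

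Relatives and substrates of Sgk1 gave no call either. Of 8 genes listed with Sgk1, 6 were tested and 0 passed by limma (1 at an unadjusted p under 0.05, Sgk1 itself), with 3 higher and 3 lower and a median log2 ratio of 0.02, which was -0.10 after removal of the length and GC trend. Sgk3, the endosomal relative, stood at 891 normalized counts per kilobase against 8913 for Sgk1, and Sgk2 at 0.821. Sgk3 averaged 3304 ± 433 and 3428 ± 171 normalized counts (SD, n = 7 each, log2 ratio 0.06), which was -0.04 after removal of the length and GC trend. Foxo1, a transcription factor that SGK kinases keep out of the nucleus, averaged 1398 ± 170 and 1230.0 ± 127 (SD, n = 7 each, log2 ratio -0.18, limma adjusted p = 0.408). Pdpk1, the kinase that activates SGK1, had a log2 ratio of 0.13 (adjusted p = 0.759).

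Ddit4, also called REDD1, which acts through TSC1-TSC2 to restrain mTORC1, was expressed at a low level with a wide spread. It lies on chromosome 10: 59949669 to 59951834 (ENSMUSG00000020108.4, minus strand). The IgG libraries ran from 51.3 to 158.8 normalized counts with a median of 82.8. The anti-CD22 libraries ran from 44.4 to 161.3 with a median of 98.4. Both extremes of the range belonged to anti-CD22 libraries, replicate 3 at the bottom and replicate 4 at the top, and IgG replicate 7 stood apart from the other IgG libraries. In the 13 libraries with recovered reads the gene had from 46 to 170.0 reads. The means were 84.7 ± 36.1 and 103 ± 37.6 (SD, n = 7 each), a log2 ratio of 0.28 (SE 0.294, 95% interval -0.33 to 0.89, limma adjusted p = 0.711). Leaving out 1 library gave 0.44 (IgG replicate 7), 0.46 (anti-CD22 replicate 3) and 0.16 (anti-CD22 replicate 4), and the value was 0.42 after removal of the length and GC trend. Without anti-CD22 replicates 1, 2 and 3 it was 0.65 (95% interval 0.0029 to 1.30, limma adjusted p = 0.972). The genes that followed Ddit4 most closely were Cep57l1 (r = 0.879), the mRNA decay factor Zfp36l2 (0.865), Rhobtb1 (0.772) and Tmem181a (0.771), and with the trend removed r was 0.916, 0.897, 0.79 and 0.59.

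Of 10 genes listed around Ddit4 and mTORC1, 9 were tested (Ddit4 included), 6 higher and 3 lower with a median log2 ratio of 0.07. By limma 0 passed, with 1 higher and 1 lower at an unadjusted p under 0.05. The kinase gene Mtor averaged 218 ± 62.5 under IgG and 320.3 ± 104.7 under anti-CD22 (SD, n = 7 each, log2 ratio 0.54, limma adjusted p = 0.324), with 7 of 7 anti-CD22 libraries over the median of IgG. Akt1s1, an inhibitory subunit of the complex, averaged 576 ± 28.6 and 469 ± 96.2 (log2 ratio -0.32, limma adjusted p = 0.315), with 7 of 7 below. Rptor, the scaffold subunit, had a log2 ratio of 0.17 and the activating GTPase Rheb one of -0.08. After removal of the length and GC trend Mtor stood at 0.44 and Akt1s1 at -0.18.

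Errfi1, which encodes the EGF receptor inhibitor Mig-6, had the steadiest level of the 7 genes. It lies on chromosome 4: 150853919 to 150868892 (ENSMUSG00000028967.10, plus strand). With IgG it ran from 1334 to 1694 normalized counts with a median of 1533, and under anti-CD22 from 1274 to 1599.8 with a median of 1445. Anti-CD22 replicate 7 was the lowest library and IgG replicate 3 the highest, and the anti-CD22 range lay mostly inside that of IgG. The means were 1517.5 ± 139 and 1449.9 ± 98.3 (SD, n = 7 each), a log2 ratio of -0.06 (SE 0.0755, 95% interval -0.22 to 0.09, limma adjusted p = 0.749), with 6 of 7 anti-CD22 libraries under the median of IgG. Its direct partners were nearly absent, since Egfr and Erbb4 had 0 counts in all libraries and Erbb2 averaged 2.05 under IgG and 1.21 under anti-CD22 in normalized counts. An antisense gene, 1700045H11Rik, overlaps Errfi1 and had 0 counts. The genes that followed Errfi1 most closely were the mitochondrial ribosomal genes Mrps10 (r = 0.785) and Mrpl51 (0.755), Stx16 (0.773) and the gamma-secretase subunit Aph1c (0.75).

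Tsc22d1, a relative of GILZ that TGF-beta also induces, had nearly equal means and 1 library far below the rest. It lies on chromosome 14: 76414961 to 76507765 (ENSMUSG00000022010.19, plus strand). With IgG it ran from 97.0 to 142 normalized counts with a median of 133. With anti-CD22 it ran from 34.9 to 178 with a median of 144. Anti-CD22 replicate 4 had 34 reads of this gene, while the next lowest anti-CD22 library, replicate 7, had 94, and replicate 6 was the highest of all 14. The means were 128 ± 15.8 and 126.5 ± 46.2 (SD, n = 7 each), a log2 ratio of -0.14 (SE 0.283, 95% interval -0.73 to 0.45, limma adjusted p = 0.864). Without anti-CD22 replicate 4 the direction turned, to 0.14 (95% interval -0.24 to 0.52, limma adjusted p = 0.769), and without anti-CD22 replicates 1, 2 and 3 the value was -0.40. The genes that followed Tsc22d1 most closely were Nt5c2 (r = 0.907), Sardh (0.814), Wdr25 (0.79) and Tmem161b (0.778). In IgG alone these r were 0.411, -0.255, 0.281 and 0.116, against higher values in anti-CD22 alone (0.974, 0.888, 0.846 and 0.865). The genes were picked for the highest r over all 14 libraries, so these values are a description. The anti-CD22 values include replicate 4, the library far below the rest, and its part in them was not tested.

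How the 7 genes varied together was examined over the 14 libraries, which share their preparation and differ in depth and in the length trend. Of 21 pairs 0 passed at an adjusted p of 0.05 (0 at an unadjusted p under 0.05, permutation test), and 0 passed by Spearman's rho. The pairs ran from r = -0.412 for Tsc22d3 with Sgk1 (permutation p = 0.146, adjusted p = 0.624, rho = -0.169, permutation p = 0.564) to r = 0.388 for Tsc22d3 with Ddit4 (permutation p = 0.172, adjusted p = 0.624, rho = 0.407, permutation p = 0.151). Without IgG replicates 2 and 5, the farthest from the median of Tsc22d3, these r were 0.0372 and 0.385. The receptor had r of -0.0656 with Tsc22d3, -0.178 with Fkbp5, -0.321 with Sgk1, -0.399 with Ddit4, 0.32 with Errfi1 and 0.183 with Tsc22d1 (permutation p = 0.826, 0.548, 0.252, 0.157, 0.268 and 0.475). Without anti-CD22 replicates 3 and 7 these were 0.415, -0.118, -0.483, -0.094, 0.0319 and 0.101. The matching rho were 0.134, -0.165, -0.398, -0.398, 0.108 and 0.385 (permutation p = 0.65, 0.572, 0.16, 0.16, 0.717 and 0.176). In 7 of the 21 pairs the sign of r differed between the IgG and the anti-CD22 libraries. For Tsc22d3 with Fkbp5, the targets most used as readouts of the receptor, r was -0.466 in IgG and 0.548 in anti-CD22, and this difference was not tested. After removal of the length and GC trend, Tsc22d3 with Ddit4 reached r = 0.571 (permutation p = 0.0328, adjusted p = 0.542).

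**Figure D4:**
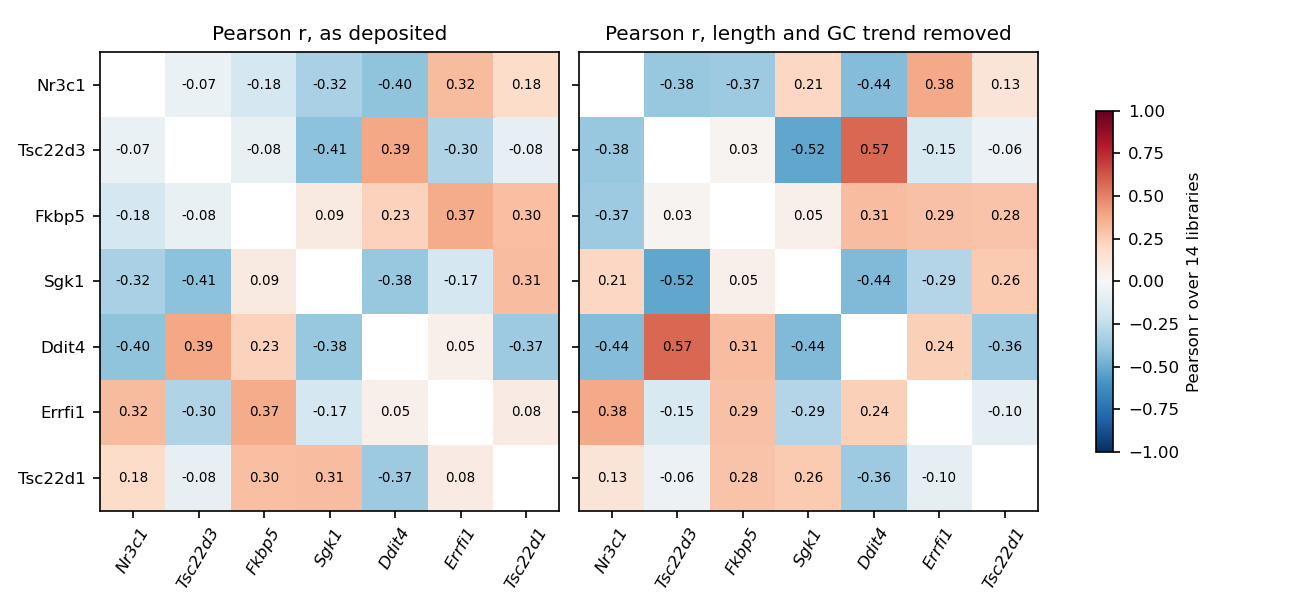
Pearson's r over the 14 libraries between the log2 levels of each pair of the 7 genes (rows and columns), as deposited (left) and with the length and GC trend removed in each library (right). Colours run from -1 (blue) to 1 (red). The values as deposited lie between -0.412 and 0.388, and 0 of 21 pairs passed adjustment on either scale.

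Other genes that glucocorticoid induces were described as a list for the pathway, chosen with earlier results of these data known. Of 30 genes 23 were tested, 8 higher and 15 lower with a median log2 ratio of -0.18, against 0.00 over all genes. By limma 0 passed (2 higher and 4 lower at an unadjusted p under 0.05). Over all genes tested 5795 of 11646 were lower, and 5.95% were lower at such a p. The list shares Lcn2 with the neutrophil markers (0 to 2646 normalized counts by library) and Cd163 with the border-associated macrophage markers (0 to 213). The part of such cells in the list was not tested. Gadd45g, a stress-induced growth arrest gene, averaged 149 ± 34.0 normalized counts under IgG and 76.0 ± 27.8 under anti-CD22 (SD, n = 7 each, log2 ratio -1.01, SE 0.242, limma adjusted p = 0.170), and it was under the median of IgG in 7 of 7 anti-CD22 libraries. The NF-kB inhibitor gene Nfkbia averaged 3979 ± 507 and 3241 ± 491 (log2 ratio -0.30, limma adjusted p = 0.244). The repressor gene Bcl6 was higher on average, at 538 ± 95.03 and 693 ± 61.9 (log2 ratio 0.38, limma adjusted p = 0.235), as was Txnip, a thioredoxin inhibitor, at 12457 ± 1264 and 13884 ± 616 (log2 ratio 0.16, limma adjusted p = 0.305). Both genes were over the median of IgG in 7 of 7 anti-CD22 libraries. With the trend removed Gadd45g stood at -0.84, Nfkbia at -0.20, Bcl6 at 0.37 and Txnip at 0.19.

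Several targets that mark hormone exposure in other tissues were close to absent. The values chosen here after the levels were seen are those of Zbtb16 (3.04 normalized counts under IgG and 5.01 under anti-CD22), Pdk4 (0 and 4.04), Hif3a (3.55 and 3.53) and Plin4 (0 in both groups). Per1, the clock gene with a glucocorticoid element, averaged 50.2 and 56.5 (log2 ratio 0.18, limma adjusted p = 0.828) and Klf9 37.1 and 35.6 (log2 ratio -0.18, limma adjusted p = 0.883). Mertk, the receptor for dying cells that glucocorticoid raises in macrophages, averaged 17268 and 18929.5 (log2 ratio 0.13, limma adjusted p = 0.406).

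Most inflammatory genes listed as repressed by glucocorticoid had lower means under anti-CD22. Over all genes tested 5795 of 11646 were lower, and 5.95% were lower at an unadjusted p under 0.05 by limma. The list as a whole was not tested against these shares. Of 16 listed, 13 were tested, 3 higher and 10 lower with a median log2 ratio of -0.21, and 0 passed by limma (0 higher and 3 lower at an unadjusted p under 0.05). Irf8, a macrophage transcription factor, averaged 31188 ± 1578 and 26561 ± 3262 normalized counts (SD, n = 7 each, log2 ratio -0.24, SE 0.0657, limma adjusted p = 0.212). The chemokine genes Ccl3, Ccl4 and Ccl2 had log2 ratios of -0.40 (limma adjusted p = 0.235), -0.37 and -0.44. With the trend removed Irf8 stood at -0.22, Ccl3 at -0.32, Ccl4 at -0.27 and Ccl2 at -0.38.

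Most genes of cell handling and immediate early response had lower means under anti-CD22. Over all genes tested 5795 of 11646 were lower, and 5.95% were lower at an unadjusted p under 0.05 by limma. This list too was not tested as a whole against these shares. Of 20 listed, 18 were tested, 4 higher and 14 lower with a median log2 ratio of -0.42, or -0.22 with the trend removed. By limma 1 passed (0 higher and 11 lower at an unadjusted p under 0.05), the immediate early gene Ier2, which fell from 598 ± 103 to 326 ± 45.5 normalized counts (SD, n = 7 each, log2 ratio -0.87, adjusted p = 0.0227), and its call was lost with the trend removed (log2 ratio -0.70, adjusted p = 0.192). The call was also lost when IgG replicate 2, 3, 4, 5 or 7, or anti-CD22 replicate 1, 3 or 6, was left out, with log2 ratios from -0.88 to -0.82 and adjusted p from 0.0542 to 0.101 in these 8 fits. The list of steroid-induced genes holds genes such as Dusp1 (log2 ratio -0.72, adjusted p = 0.324) that handling also induces. The part of handling in the values of the receptor's targets was not tested.

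**Figure D5:**
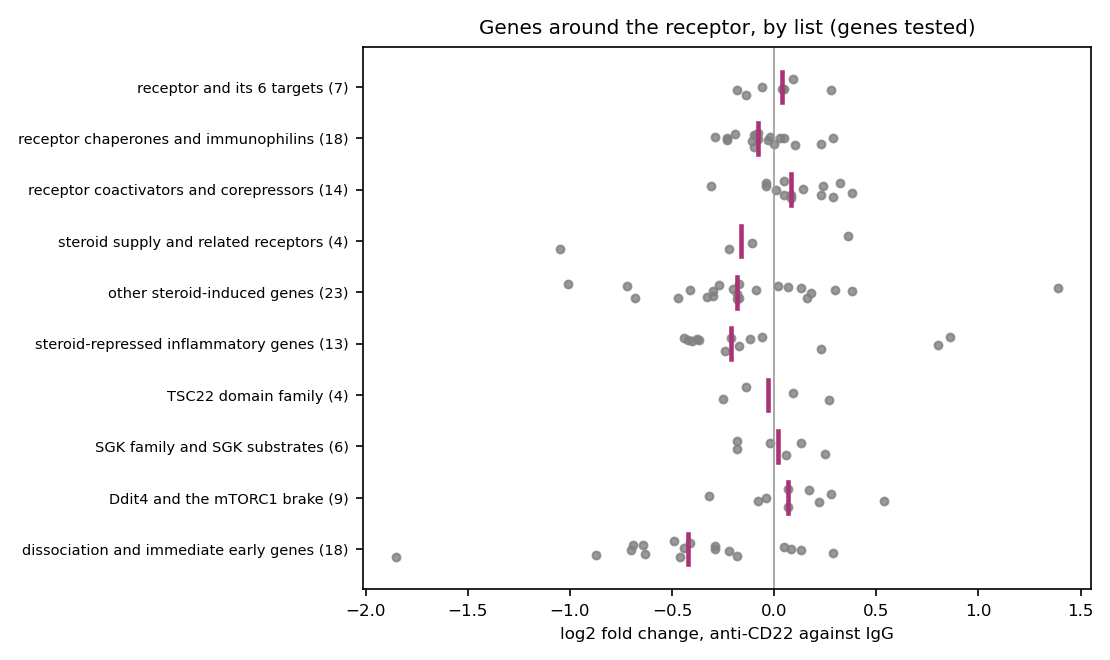
Log2 fold change of anti-CD22 over IgG (horizontal axis) of each tested gene (grey points) in the lists around the receptor (rows, number of tested genes in brackets), with the median of each list as a bar. Medians lie between -0.42 for the immediate early list and 0.08 for the coactivators, and the receptor with its 6 targets has a median of 0.04.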

How the data were processed

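Per the labels, RNA of sorted microglia was sequenced as reads of 100 bases from both ends. Per the submitters' processing notes, the tools were bcl2fastq, STAR with the mm10 build, SummarizedExperiment and DESeq2. Their versions, the annotation and any use of strand are not stated in these notes or in the labels. Values were deposited by the authors as normalized counts, a signal in which each library's counts were divided by 1 size factor. Of 24421 entries, 27 whose names had turned into dates (at most 0.149% of a library) were left out, and 0 columns were without a sample.

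Group differences were tested by limma on log2(normalized count + 1) where a gene's mean reached 10, with a mean-variance trend, two-sided, Benjamini-Hochberg adjusted over all 11646 genes. Fold changes are on that scale, where the added 1 shrinks changes of genes with few counts. As differences of mean logs they can also depart from the change in means, even in direction. Mmp9, for one, averaged 116 normalized counts under IgG and 42.2 under anti-CD22 but had a log2 ratio of 0.86. Genes counted as higher or lower follow the sign of the log2 ratio. Whole reads (tolerance 0.1 reads, 100% of values) were recovered for 13 libraries and used in edgeR and DESeq2, without anti-CD22 replicate 3, whose step of 1.00925 is close to 1. Length, GC content and coordinates came from GENCODE vM21 (GRCm38, the assembly of mm10), known for 96.4% of tested genes, and trends were removed with natural splines. Correlations used 100000 permutations. Promoter windows came from RefSeq (GRCm38.p6).

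The 7 genes and all lists were chosen with earlier results of these data known. Named genes are the 7, per list those past the threshold or else up to 4 with the smallest p, and the 4 genes most alike to each of the 7, while a few list genes, such as Hsp90ab1, Fkbp4, Hsd11b2, Per1, Klf9, Mertk, Dusp1 and the ErbB genes, were named after their values were seen. Some genes that this rule or the marker lists hold are not reported here. On simulated counts of 11646 genes in the 7 against 7 design the test called 51 of 100 with a 1.5-fold change. It called 80 of 100 with a 2-fold change, and made 11 false calls. The simulated libraries differed in depth but carried no length or GC trend. The adjusted threshold also depends on how many genes change, so these shares need not hold for the real libraries. Tools were R 4.3.3, limma 3.58.1, edgeR 4.0.16, DESeq2 1.42.0, Python 3.11.15, pandas 2.3.3, scipy 1.17.1 and matplotlib 3.10.9.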

Additional observations from a re-analysis of the deposited data

Results flagged for a closer look

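Within the groups of 7, the gap of the highest or lowest library to the nearest other library was divided by the range of the group. A library was marked where this ratio passed Dixon's critical value at 95%, which chance gives in about 1 of 20 groups. Of 74 groups examined 7 were marked. Among the receptor and its targets 1 was marked, Ddit4 in IgG replicate 7, at 158.8 normalized counts against 92.9 in the next IgG library. The corepressor gene Nrip1 was lowest in anti-CD22 replicate 7, at 5732.9 against 7334.3 in the next. Ncoa3 was lowest in the same library, at 1268.6 against 2117.7. Crebbp was highest in anti-CD22 replicate 4, at 1035.7 against 735.9. IgG replicate 2 was the highest of its group for H6pd, at 4111.5 against 3464.5, and for Sgk3, at 4219.5 against 3255.4. Hsd11b1 was highest in IgG replicate 1, at 139.7 against 33.1 normalized counts.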

How the results depend on the processing

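Each of the 7 genes was refitted under 30 alternatives, and 0 of the 7 passed the threshold in any of them. Tsc22d3, Sgk1, Ddit4 and Errfi1 kept their direction in all 30. Nr3c1 reversed with the length and GC trend removed (-0.11), with a replicate block and the trend removed (-0.11) and without anti-CD22 replicates 1, 2 and 3 (-0.07). Leaving out 1 library gave log2 fold changes from 0.01 to 0.12 for Nr3c1, from 0.04 to 0.15 for Tsc22d3, from -0.0027 to 0.11 for Fkbp5, from -0.22 to -0.10 for Sgk1, from 0.16 to 0.46 for Ddit4, from -0.09 to -0.03 for Errfi1 and from -0.24 to 0.14 for Tsc22d1. Among the 30 other named genes, 12 of 898 refits reversed. Hsd11b1 reversed with sample weights (0.13) and spanned -0.77 to 0.60 when 1 library was left out, Sgk3 stood at -0.04 with the trend removed, with and without the block, and Pdpk1 at -0.00038 in both and at -0.07 without anti-CD22 replicates 1, 2 and 3. The cause was not tested.

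The 1 gene past the threshold over the whole table, Ier2, became 0 genes without a mean-variance trend, with the length and GC trend removed, by edgeR (1027 at an unadjusted p under 0.05) and without anti-CD22 replicates 1, 2 and 3, and 8 with sample weights, 2 with the replicate block, 4 at a threshold of 0.10 and 35 by DESeq2. Of these the lists around the receptor held 0, 0, 0 and 0, then 3, 2, 2 and 4 genes, all of them immediate early genes (Ier2, Jun, Myc and Socs3). Leaving out 1 library gave from 0 to 43 genes, the most without anti-CD22 replicate 7, and from 0 to 4 in the lists. Whether replicate numbers pair the libraries was not decided, since pairs can be alike too weakly for these correlations to show. Same-numbered libraries had correlations of deviations from -0.145 to 0.16 with 2 of 7 over 0.1. For 2 of 7 numbers the best partner had the same number. The block left 0 of the 7 genes past the threshold, with Sgk1 at -0.18 (adjusted p = 0.316). No pair of the 7 genes passed under any alternative (0 pairs).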

Other observations

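Some libraries held the extremes of several of these genes at once, and how often chance gives this was not tested. Anti-CD22 replicate 7 had the lowest Nr3c1 (5215 normalized counts) and the lowest Errfi1 (1274) of all 14 libraries, together with the lowest Nrip1 and Ncoa3 of its group. Its neutrophil marker sum was 2588 and its length rho of -0.269 the lowest of all. Anti-CD22 replicate 4 had the lowest Tsc22d1 (34.9), the highest Ddit4 (161.3) and the highest Crebbp of its group, with a length rho of 0.136. IgG replicate 5 had the highest Sgk1 (39447) and the lowest Tsc22d3 (2033), and also the largest sum of microglia markers (2172920). Anti-CD22 replicate 3 had the highest Nr3c1 (8145) and the lowest Ddit4 (44.4). IgG replicate 2 had the highest Tsc22d3 (3234) and the lowest Fkbp5 (1844.5).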
